A study of Mus musculus with 3 samples.

Results

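Deep-layer cortical neuron genes were described here as a set of 10 genes, Bcl11b, Fezf2, Foxp1, Foxp2, Tle4, Sox5, Etv1, Crym, Syt6 and Pcp4, taken by symbol from 32531 named genes in the count files. All 10 symbols were matched. The data come from translating ribosome affinity purification, in which polysomes of genetically tagged cells are pulled down and their RNA is sequenced. The mice were adult, untreated controls of the line Lypd1-EGFP/Rpl10a (OI82), in which EGFP fused to the ribosomal protein Rpl10a is driven by Lypd1 regulatory DNA, and polysomes were captured with anti-EGFP antibodies from the dissected cortex-amygdala transition zone. The series has 1 group of 3 libraries, called replicates 1, 2 and 3, all of that 1 line. The series' design text names 3 mice, but no source ties each library to 1 mouse. Every cell that runs the transgene contributes, so the captured RNA need not come from cortical neurons alone, and no unpurified tissue was analysed here, so no value here is an enrichment over the tissue. In such bulk RNA, fewer cells of a type and less RNA per cell cannot be told apart. Nor can RNA of tagged cells be told apart from RNA of untagged cells carried along in the capture.

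Projection neurons of the deep cortical layers send axons out of the cortex, those of layer 5 mainly to brainstem, spinal cord and striatum and those of layer 6 mainly to the thalamus. Their identity is set by transcription factors that repress one another's programmes: Fezf2 acts above Bcl11b in layer 5 subcerebral neurons, while Sox5 and the layer 6 factor Tbr1 restrain Fezf2. Many of these genes also serve outside the cortex, for example Bcl11b, Foxp1 and Foxp2 in striatal projection neurons and Foxp2 in the intercalated cells of the amygdala.

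The promoters of 8 of the 10 genes were matched in the RefSeq table for GRCm38.p6, with 14 start sites in all, and Foxp2 and Crym were not in the table. The sequence before the start is shown for Tle4 and Syt6, the genes with the smallest and the largest spread between libraries relative to the mean, and for Pcp4, the gene near the detection floor. Each run holds the 200 bases before the gene's first start in the table, read 5′ to 3′ on the gene's strand, with CG dinucleotides in capitals. The GENCODE M21 annotation used below starts Syt6 earlier, so 14 bases of the Syt6 run lie in its annotated exons there.
Tle4, minus strand, chr19:14598184-14598383: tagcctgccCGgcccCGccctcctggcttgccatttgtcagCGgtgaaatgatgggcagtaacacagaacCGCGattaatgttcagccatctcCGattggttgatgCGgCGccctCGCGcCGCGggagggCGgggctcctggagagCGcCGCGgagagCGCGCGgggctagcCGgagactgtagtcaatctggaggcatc
Syt6, plus strand, chr3:103575045-103575244: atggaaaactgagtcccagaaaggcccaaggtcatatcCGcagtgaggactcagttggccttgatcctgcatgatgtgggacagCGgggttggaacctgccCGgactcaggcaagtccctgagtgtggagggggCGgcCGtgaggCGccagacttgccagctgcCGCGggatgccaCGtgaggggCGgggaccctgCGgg
Pcp4, plus strand, chr16:96467406-96467605: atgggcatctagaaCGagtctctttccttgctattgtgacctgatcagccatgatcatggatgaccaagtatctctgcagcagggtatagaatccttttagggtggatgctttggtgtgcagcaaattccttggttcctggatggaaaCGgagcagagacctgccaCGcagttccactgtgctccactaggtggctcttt
The Tle4 window held 20 CG dinucleotides, the Syt6 window 11 and the Pcp4 window 3, against a median of 5 over 32851 promoter windows of the same length. The 14 member windows ranged from 1 to 28, and those of Foxp1 alone from 3 to 27, so windows of 1 gene can differ widely. The window with 1, at the second start of Etv1, lies wholly in annotated exons of Etv1. In the Bcl11b window 188 of the 200 bases lie in its own exons. The letters TATAAA, on either strand, stood in 1 of the 14 member windows and in 9.96% of all windows. That 1 window is the one at the second start of Etv1, which lies in its exons. The letters CCAAT, on either strand, stood in 2 of 14 and in 29.3% of all. These 2 motifs do not overlap each other, and a match is only a description of the letters.

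Levels are in CPM, a gene's share of all gene counts in its library times 1000000. A gene counted as detected where none of the 3 libraries was below 1 CPM. Of the 10 genes 9 were detected, against 61.5% of genes counted at least once and 39.3% of all genes listed. The median over the 10 genes was 29.9 ± 6.20 CPM (SD, n = 3), against 25.2 ± 1.20 CPM over the 12773 detected genes. Together the 10 genes took 426, 499 and 341 CPM in replicates 1, 2 and 3. Their sum was thus highest in replicate 2. Their median was instead highest in replicate 1, at 36.6, 28.8 and 24.3 CPM in replicates 1, 2 and 3. Replicates 1, 2 and 3 held 18526251, 24690301 and 8668527 assigned counts. On its own each library had 14181, 14085 and 15960 genes at 1 CPM or more, in the same order. A total of 3 counts, the limit that a count of 0 allows, equals 0.122 to 0.346 CPM. Lypd1, whose regulatory DNA drives the transgene, measured 232, 601 and 272 CPM, and the cortical glutamatergic marker Slc17a7 measured 173, 260 and 240 CPM. The intervals and floors given here cover counting error only.

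**Figure D1:**
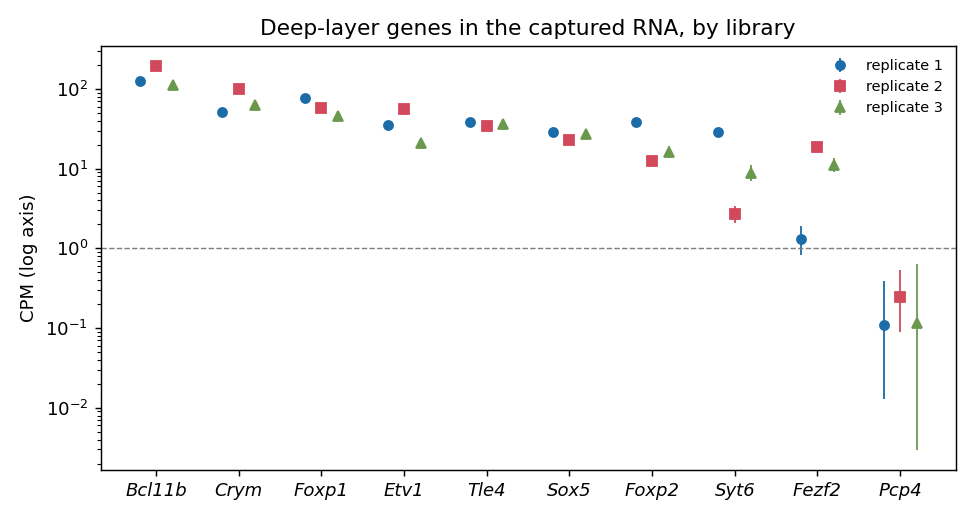
CPM of each gene (log axis) in the 3 libraries, with bars for the exact 95% Poisson interval of the counts, hidden by the symbol where narrow, and a dashed line at the detection level of 1 CPM. Bcl11b lies between 111 and 193 CPM, Fezf2 lies near the line in replicate 1, and Pcp4 lies below the line in all 3.

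Bcl11b, a zinc-finger transcription factor needed for the axons of subcerebral neurons, was the most abundant of the 10 by CPM. Its level was 127, 193 and 111 CPM in replicates 1, 2 and 3. Replicate 2 stood above the other 2 libraries, which lay close together. The ratio of the highest to the lowest library was 1.74, with an exact counting interval of 1.62 to 1.87. In GRCm38 Bcl11b (ENSMUSG00000048251.15) spans chr12:107910403-108003602 on the minus strand, with 8111 bases of annotated exon.

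Fezf2, the zinc-finger factor that specifies subcerebral projection neurons, was the least even of the transcription factors. Its level was 1.30, 18.6 and 11.1 CPM in replicates 1, 2 and 3, from 24, 460 and 96 counts. Replicate 1 was low and only just passed the detection level, with an interval of 0.830 to 1.93 CPM, while the other 2 libraries were well above it. Replicate 2 exceeded replicate 1 by 14.4 times, with an exact counting interval of 9.54 to 22.7. Fezf2 (ENSMUSG00000021743.6) spans chr14:12342094-12348189 on the minus strand, with 3047 exon bases.

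Etv1, an ETS-family factor that marks layer 5 neurons, measured 34.9, 56.3 and 21.1 CPM in replicates 1, 2 and 3. Its highest library was again replicate 2, by 2.67 times over replicate 3 (counting interval 2.28 to 3.13). Crym, the cytosolic thyroid hormone binding protein mu-crystallin, measured 51.2, 99.4 and 62.2 CPM. For Crym replicate 2 was the high library and replicates 1 and 3 lay together, with a ratio of highest to lowest of 1.94 (1.80 to 2.10). Etv1 (ENSMUSG00000004151.17) spans chr12:38779380-38870484 on the plus strand, and Crym (ENSMUSG00000030905.5) spans chr7:120186380-120202111 on the minus strand.

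The forkhead factors were highest in replicate 1 and not in replicate 2. Foxp1, which acts in cortical and striatal projection neurons, measured 76.2, 58.1 and 46.0 CPM in replicates 1, 2 and 3. Foxp2, a factor of layer 6 corticothalamic neurons and of striatal and intercalated cells, measured 38.3, 12.4 and 16.3 CPM. Replicate 1 was the highest for both, and for Foxp2 it exceeded replicate 2 by 3.08 times (2.69 to 3.53). For Foxp1 the ratio of the highest to the lowest library was 1.66 (1.48 to 1.86). Foxp1 (ENSMUSG00000030067.17) spans chr6:98925338-99522721 on the minus strand, and Foxp2 (ENSMUSG00000029563.16) spans chr6:14901349-15441977 on the plus strand.

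Syt6, a synaptotagmin of the vesicle and membrane trafficking machinery that marks layer 6 corticothalamic neurons, shared the order of Foxp2 with a wider range. Its level was 29.1, 2.67 and 8.88 CPM in replicates 1, 2 and 3, from 539, 66 and 77 counts. The 3 values stood far apart, and replicate 1 exceeded replicate 2 by 10.9 times (8.42 to 14.3). Its SD of 13.8 CPM was as large as its mean of 13.5 CPM. Syt6 (ENSMUSG00000027849.18) spans chr3:103575231-103645569 on the plus strand, and 8.67% of its 5828 exon bases overlap a pseudogene on the opposite strand.

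Tle4 and Sox5 were the steadiest of the 10 relative to their means. Tle4, a co-repressor of the Groucho family in layer 6 corticothalamic neurons, measured 38.9, 34.4 and 36.8 CPM, a coefficient of variation of 6.18%. Sox5, a SoxD factor that controls the timing of deep-layer fates, measured 28.8, 23.2 and 27.6 CPM, a coefficient of variation of 11.0%. The 3 libraries of each lay close together, with highest-to-lowest ratios of 1.13 (1.02 to 1.25) and 1.24 (1.10 to 1.40). Tle4 (ENSMUSG00000024642.17) spans chr19:14448150-14598051 and Sox5 (ENSMUSG00000041540.16) chr6:143828425-144781977, both on the minus strand. Of the Sox5 exon bases 9.25% overlap the antisense gene Sox5os1, and without a stated strand setting reads of the pair cannot be told apart.

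Pcp4, a small calmodulin-binding protein of deep-layer and striatal neurons also called Pep19, was near the floor. It had 2, 6 and 1 counts in replicates 1, 2 and 3, which is 0.108, 0.243 and 0.115 CPM, with upper interval limits of 0.390, 0.529 and 0.643 CPM. No library reached 1 CPM, and only replicate 2 held more than 3 counts. Its paralog Pcp4l1 had 1417, 2839 and 371 counts in the same libraries. The ratio of Pcp4l1 to Pcp4 counts was 708 (counting interval 196 to 5856) in replicate 1, 473 (217 to 1290) in replicate 2 and 371 (66.2 to 14693) in replicate 3. Pcp4 (ENSMUSG00000090223.2) spans chr16:96467606-96525793 on the plus strand.

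The counts of Pcp4 carry a limit from the gene model. In GENCODE M21, 1 of 6 annotated transcripts of the neighbouring gene Igsf5 runs through Pcp4 and shares 243 of the 641 bases of the longest Pcp4 transcript, which leaves 398 bases to Pcp4 alone. Reads that fall on exons of more than 1 gene are not counted for either in HTSeq's default modes, and the annotation the authors counted with is not given in the sources used here. Igsf5 itself had 164, 0 and 2 counts in replicates 1, 2 and 3. Of 1414 protein-coding genes with 770 to 1282 exon bases, only 573 had a count in any library. Of the 1414, 18.6% were detected and 67.8% had a mean CPM at or below that of Pcp4. Both shares therefore include genes without any count, and longer genes were not set beside them. The part of the overlap and of transcript length in the low Pcp4 counts was not tested.

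**Figure D2:**
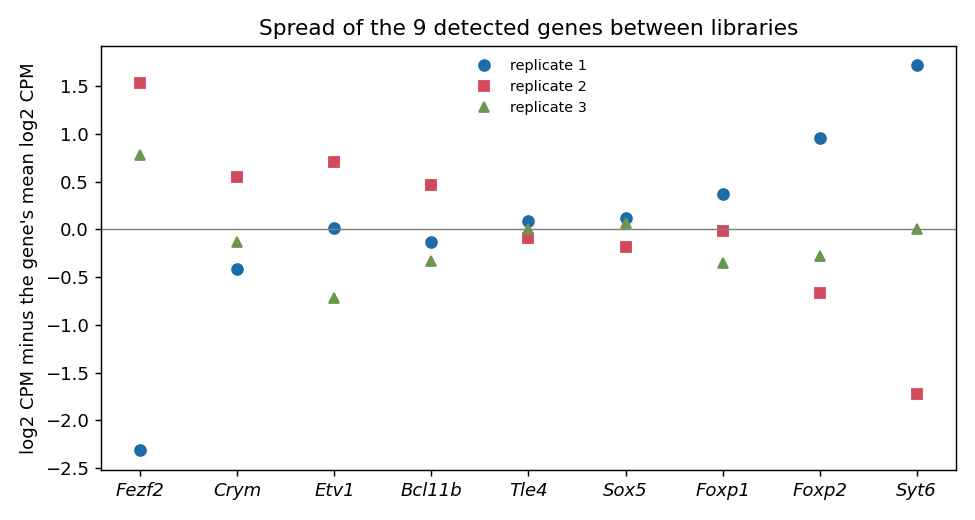
For the 9 detected genes, the log2 CPM of each library minus the gene's mean log2 CPM over the 3 libraries, with genes ordered by the difference between replicates 1 and 2. Replicate 2 (squares) is the highest library for Fezf2, Crym, Etv1 and Bcl11b, replicate 1 (circles) is the highest for Tle4, Sox5, Foxp1, Foxp2 and Syt6, and the widest ranges are at both ends, in Fezf2 and Syt6.

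Whether a gene varied between the libraries more than genes of its level was tested with edgeR's goodness-of-fit test over the 15336 genes whose mean was at least 1 CPM, among them 9 of the 10 genes (Pcp4 was too low). None of the 9 passed at a Benjamini-Hochberg adjusted p of 0.05, against 0.209% of all genes tested. The smallest adjusted p of a member under any other setting tried was 0.343. At an unadjusted p under 0.05 there were 2 of 9, against 7.82% of all. By edgeR's goodness-of-fit test these were Syt6, with an unadjusted p of 0.0123 and an adjusted p of 0.419, and Fezf2, with an unadjusted p of 0.0195 and an adjusted p of 0.519. Without replicate 1 neither was below 0.05 unadjusted, and without replicate 2 no member was. The adjusted p of the other 7 ranged from 0.877 for Etv1 to 0.9985 for Tle4. A highest library over 5 times the lowest was found for the same 2 of 9 and for 20.3% of all genes tested, so ranges of this size were common in these libraries and not a result about these genes.

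The genes split by the library in which they peaked. Replicate 1 was the highest for 5 of 9, Foxp1, Foxp2, Tle4, Sox5 and Syt6, against 31.6% of all genes tested. Replicate 2 was the highest for 4 of 9, Bcl11b, Fezf2, Etv1 and Crym, against 29.2%. Replicate 3 was the highest for 0 of 9, against 39.2%. For Tle4 and Sox5 the differences between libraries were small, so their place in the first set rests on little. The split was seen in the values and carries no test.

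The same libraries differed in the markers of other cells. The summed level of 14 GABAergic and interneuron markers was 1266, 668 and 974 CPM in replicates 1, 2 and 3, with 12 of 14 detected and Pvalb under 1 CPM in every library. The summed level of 13 matched striatal markers was 425, 302 and 331 CPM, with 10 of 13 detected. Among them Drd2, a dopamine receptor of indirect-pathway striatal neurons, measured 47.1, 2.67 and 15.5 CPM, highest in replicate 1 and lowest in replicate 2 as Syt6 and Foxp2 were. The striatal list as a whole was mixed, with 6 of its 13 genes highest in replicate 1, 4 in replicate 2 and 3 in replicate 3. Adora2a, the adenosine receptor of the same striatal neurons, had 0 counts in replicates 1 and 2 and 0.231 CPM in replicate 3. The 4 intercalated-cell markers, all detected, summed to 256, 168 and 167 CPM.

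Pallial glutamatergic markers were instead highest in replicate 2, with summed levels of 2832, 4561 and 3159 CPM and 8 of 8 detected, although 5 of the 8, Tbr1 among them, also stand on other lists used here. Camk2a alone took 2182, 3677 and 2408 CPM of these sums. Of the 8 genes 6 were highest in replicate 2, but Slc17a6, another vesicular glutamate transporter, measured 127, 66.5 and 76.8 CPM and Neurod6, a relative of Neurod2, 15.01, 5.59 and 15.1 CPM, both lowest in replicate 2. Neurod2, a factor of cortical excitatory neurons, measured 44.5, 167 and 112 CPM, and Emx1, a factor of the pallium, had 0 counts in replicate 1 and measured 3.89 and 3.11 CPM in replicates 2 and 3. Both were lowest in replicate 1, as Fezf2 was, whereas Emx2, a relative of Emx1, measured 3.94, 1.86 and 7.84 CPM and was lowest in replicate 2. Astrocyte markers summed to 2131, 1330 and 1315 CPM, with 7 of 7 detected. Oligodendrocyte lineage markers summed to 422, 279 and 290 CPM (10 of 10 detected), and thalamic markers to 356, 223 and 208 CPM (6 of 7 detected, Gbx2 at 0 in every library). Immune and endothelial markers summed to 50.5, 48.6 and 36.1 CPM with 4 of 11 detected, and hippocampal markers to 188, 221 and 176 CPM with 6 of 10 detected. The part of these cells in the spread of Fezf2, Syt6 and Foxp2 was not tested.

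**Figure D3:**
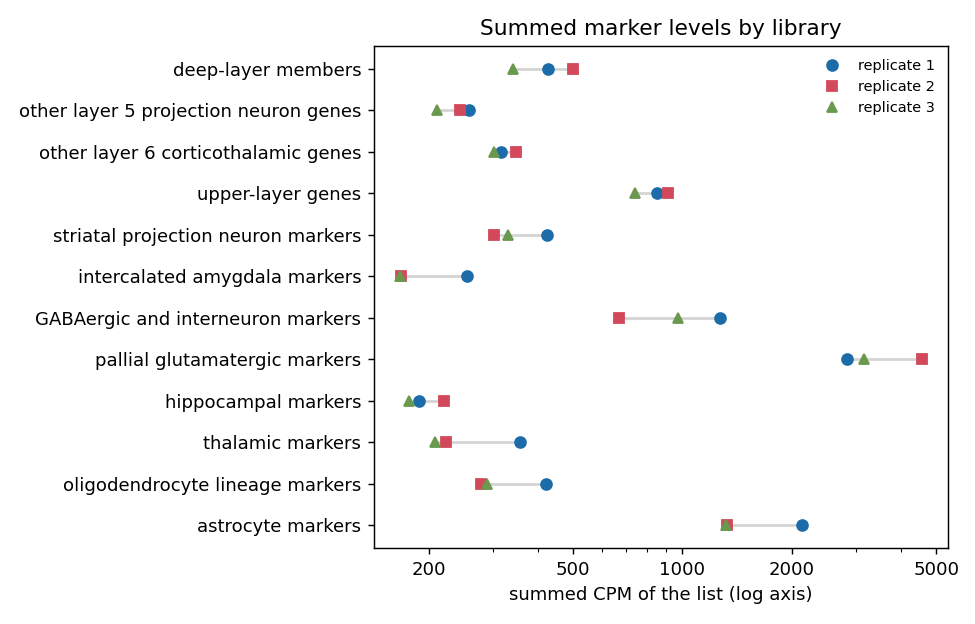
Summed CPM (log axis) of each gene list in the 3 libraries, with a grey line from the lowest to the highest. Replicate 1 is the highest for GABAergic, striatal, intercalated, thalamic, oligodendrocyte and astrocyte markers, and for the other layer 5 genes. Replicate 2 is the highest for the other layer 6, upper-layer and hippocampal lists. It is also the highest for pallial glutamatergic markers, a sum that is mostly Camk2a, and for the sum of the 10 deep-layer genes. The median of those 10 genes, not drawn, was highest in replicate 1.

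Relative to Slc17a7, the vesicular glutamate transporter of cortical excitatory neurons, in the same library, the spread moved in both directions. The ratio of the highest to the lowest library became 16.4 for Syt6, 9.57 for Fezf2 and 4.63 for Foxp2. It became 1.60 for Bcl11b and 1.48 for Crym. The steady genes widened, to 1.70 for Tle4 and 1.86 for Sox5, with replicate 1 as the highest library. Scaling by 1 gene adds that gene's own spread, and this scaling was chosen after seeing the data.

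To compare levels between genes, CPM was divided by kb of annotated exon. By mean level the order was Crym (20.9 ± 7.46 CPM per kb), Bcl11b (17.7 ± 5.37), Tle4 (6.44 ± 0.398), Foxp1 (4.37 ± 1.11), Fezf2 (3.39 ± 2.85), Etv1 (2.82 ± 1.33), Syt6 (2.32 ± 2.37), Sox5 (1.84 ± 0.204), Foxp2 (1.37 ± 0.853) and Pcp4 (0.152 ± 0.0740). Crym and Bcl11b lay at the 84.9th and 81.4th percentile of detected genes with a known length. Tle4 was at the 52.5th, Foxp1 at the 39.9th and Foxp2 at the 10.7th percentile.

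Of the 9 neighbouring pairs in that order, 3 differed by more than their spread between libraries. The order was set by the same values, so these contrasts give no independent support for it. How often other gene pairs differ as much was not counted. Bcl11b exceeded Tle4 by 1.42 ± 0.49 on the log2 scale of CPM per kb, Tle4 exceeded Foxp1 by 0.59 ± 0.33 and Foxp2 exceeded Pcp4 by 3.10 ± 1.40, each with the same sign in 3 of 3 libraries. An exact two-sided permutation of the signs gave p = 0.25 for each, and 3 libraries cannot give less (adjusted p = 0.75 over 9 pairs). The step from Tle4 to Foxp1 depends on the length used, since it was −0.02 with the longest transcript. The other 6 neighbours, Crym and Bcl11b among them (0.22 ± 0.25), were not separated beyond their spread. Without replicate 1 the number beyond it was 6 of 9 in place of 3. For Fezf2 against Etv1 the mean log2 difference was −0.30 ± 2.04, and for Syt6 against Sox5 it was −0.28 ± 1.57, so both had the opposite sign to the difference of the mean levels.

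Each gene was also set against a paralog or a known partner, in 11 pairs compared within each library per kb of exon. In 9 pairs the difference had the same sign in 3 of 3 libraries and was larger than its SD. For these 9 the exact sign-flip permutation p, two-sided, was 0.25, which is the least possible here, and the adjusted p was 0.306 over 11 pairs. How often other pairs of genes meet the same rule was not counted, so 9 of 11 is not a result about these genes.

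**Figure D4:**
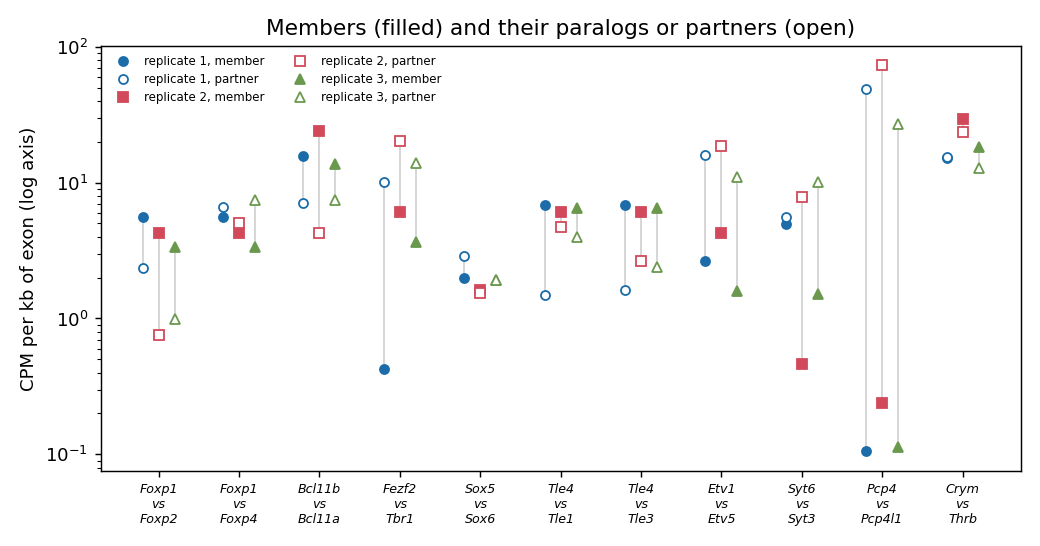
CPM per kb of exon (log axis) for each gene (filled) and its paralog or partner (open), joined by a line within each library. Bcl11b lies above Bcl11a in all 3 libraries, Fezf2 below Tbr1, Etv1 below Etv5 and Pcp4 far below Pcp4l1, while Sox5 and Sox6 lie close together.

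Bcl11b exceeded its paralog Bcl11a (6.25 ± 1.71 CPM per kb) with log2 differences of 1.15, 2.48 and 0.89 in replicates 1, 2 and 3 (SD 0.85). This difference was not beyond its SD with the longest transcript as length (0.37 ± 0.85, exact permutation p = 0.75) or without length correction (0.80 ± 0.85). The gap was widest in replicate 2, where Bcl11b was highest and Bcl11a lowest.

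Fezf2 was below Tbr1, the T-box factor of layer 6 that represses it, with a difference of −2.74 ± 1.59 on the log2 scale of CPM per kb. Tbr1 measured 10.1, 20.1 and 13.9 CPM per kb in replicates 1, 2 and 3, and Fezf2 0.425, 6.11 and 3.63. Both were lowest in replicate 1, and the gap there, −4.57, was wider than the gaps of −1.71 and −1.93 in the other libraries.

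On the same log2 scale Foxp1 exceeded Foxp2 by 1.82 ± 0.62 and was below Foxp4 (6.35 ± 1.23 CPM per kb), with a difference of −0.55 ± 0.51. The second difference was 0.09 with the longest transcript and 0.93 without length correction, so its direction depends on the length used. Tle4 exceeded its paralogs Tle1 (3.39 ± 1.68 CPM per kb) by 1.08 ± 0.97 and Tle3 (2.22 ± 0.540) by 1.57 ± 0.46. For Tle4 and Tle1 the gap was 2.19 in replicate 1 and 0.35 and 0.71 in replicates 2 and 3. It was within its SD with the longest transcript (0.41 ± 0.97, exact permutation p = 0.75), without length correction (0.47 ± 0.97) and without replicate 3 (1.27 ± 1.30).

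Sox5 and Sox6, a paralog that marks cortical interneurons, differed by −0.16 ± 0.33, within their spread (exact permutation p = 0.75). Crym and the thyroid hormone receptor gene Thrb (17.3 ± 5.53 CPM per kb) differed by 0.27 ± 0.28, also within it (exact permutation p = 0.5). Etv1 was below its ETS-family relative Etv5 (15.2 ± 3.96 CPM per kb), with a log2 difference of −2.51 ± 0.33. Syt6 was below its paralog Syt3 (7.85 ± 2.30 CPM per kb), with a log2 difference of −2.33 (SD 1.997) and values of −0.16, −4.09 and −2.74 in replicates 1, 2 and 3. The difference was within its SD without replicate 2 (−1.45 ± 1.82), without replicate 3 (−2.12 ± 2.78) and without length correction (−1.43, SD 1.997). Pcp4 was below Pcp4l1 (49.5 ± 22.9 CPM per kb), with a log2 difference of −8.34 ± 0.47 that rests on the few Pcp4 counts given above.

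Other genes of deep-layer neurons, taken from lists, were present in part. All 8 further layer 6 corticothalamic genes were detected, and their median level was 36.5 ± 2.13 CPM. Hs3st4, a heparan sulfate sulfotransferase, measured 95.5 ± 9.58 CPM, Tbr1 80.5 ± 27.6 and Rprm, a cell cycle inhibitor that marks these neurons, 45.9 ± 21.6 CPM. The 8 genes summed to 317, 348 and 304 CPM in replicates 1, 2 and 3, a narrow range, although Rprm on its own was highest in replicate 1, at 70.8 CPM against 31.5 and 35.5, as Syt6 and Foxp2 were. Of the 8, 2 were highest in replicate 1, 4 in replicate 2 and 2 in replicate 3. Ntsr1, the neurotensin receptor that marks layer 6 corticothalamic neurons, was low and even at 5.20 ± 0.221 CPM.

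Of 12 further layer 5 genes 9 were detected, and the median over the 12 was lower, 7.09 ± 1.99 CPM. Their sum was 258, 243 and 210 CPM in replicates 1, 2 and 3, highest in replicate 1, unlike the sum of the 10 members. Of the 12, 3 were highest in replicate 1, 5 in replicate 2 and 4 in replicate 3. The most abundant were Bcl6, a transcriptional repressor, at 87.0 ± 26.2 CPM, Deptor, an inhibitor of mTOR, at 49.6 ± 18.3 CPM and Ldb2, a LIM-domain cofactor, at 43.2 ± 5.34 CPM. Hspb3, a small heat shock protein, stayed under 1 CPM in every library. Of 5 genes of near-projecting layer 5 neurons 3 were detected, with the zinc-finger gene Tshz2 at 88.0 ± 37.2 CPM, Vwc2l at 27.8 ± 3.80 and the thyrotropin-releasing hormone receptor Trhr at 12.6 ± 8.97 CPM. Trhr measured 2.38, 19.1 and 16.4 CPM in replicates 1, 2 and 3, low in replicate 1 as Fezf2 was. Tshz2, at 104, 45.4 and 114 CPM, and the glutamate transporter gene Slc17a8, at 5.78, 0 and 0.577 CPM, were instead lowest in replicate 2, and Sla2 had at most 0.115 CPM in any library.

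Of 5 layer 6b genes 4 were detected, and Cplx3, a complexin of those cells, had at most 0.365 CPM. Nxph4 and Moxd1 measured 9.39 ± 2.01 and 8.53 ± 2.93 CPM. Nr4a2, a nuclear receptor, was the single gene of these lists that passed the variation test (edgeR, adjusted p = 0.0352), with 16.6, 134 and 31.8 CPM in replicates 1, 2 and 3. It was highest in replicate 2, as were Bcl11b, Fezf2, Etv1 and Crym. The call was lost without replicate 1 (edgeR, adjusted p = 0.431) and without replicate 2 (adjusted p = 0.946), and with a common dispersion (adjusted p = 0.458), while the adjusted p was 0.0202 to 0.0481 under the other 5 settings. All 11 upper-layer genes were detected, and their list median of 34.6 ± 14.7 CPM lay within its spread of the median of the 10 deep-layer genes. The 11 summed to 851, 914 and 742 CPM in replicates 1, 2 and 3, also highest in replicate 2.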

How the data were processed

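The authors deposited raw read counts per gene symbol, not normalized, for each of the 3 libraries. The submitters' processing notes name STAR 2.0.0e, HTSeq and mm10. The annotation, strand setting and library kit are not given in the sources used here. The 5 HTSeq summary classes were left out of library sizes. In replicates 1, 2 and 3, 31.4%, 25.6% and 45.3% of all entries were in no feature. In the same order 32.7%, 24.3% and 16.5% were not uniquely aligned, and 1.26% to 1.98% were ambiguous. Replicate 3 thus had the fewest assigned counts and the largest share in no feature.

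Positions and exon lengths come from GENCODE M21 on GRCm38, and promoters from RefSeq. Variation between libraries was assessed by edgeR 4.0.16 (R 4.3.3), using a model with an intercept alone, TMM factors and trended dispersions. The test was the one-sided goodness of fit with 2 residual degrees of freedom and Benjamini-Hochberg adjustment. It was also run on simulated data, but its rate of recovery is not given here, so a gene not called may still vary. With 1 group no quasi-likelihood contrast exists. Gene pairs were compared by exact permutation of signs. Python 3.11.15, pandas 2.3.3, numpy 2.4.6, SciPy 1.17.1 and matplotlib 3.10.9 were used. Intervals are exact at 95% (Poisson for counts, Clopper-Pearson for ratios).

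The members and lists were chosen with earlier results of these data known. Of 180 list entries 1, an older symbol of Drd1, was not matched. The text names all 10 members, the genes of the 11 pairs, the most abundant genes of the related lists (up to 3 each) and any list gene called as varying. Ntsr1, Hspb3, Sla2, Cplx3, Drd2, Adora2a, Pvalb, Gbx2, Neurod2, Emx1, Emx2, Neurod6, Slc17a6, Slc17a8, Igsf5, Dio2 and Dio3 were chosen after their values were seen. No source says that each library holds RNA of 1 mouse, so p-values measure the spread between libraries, which may be technical. A further planned pair and some list genes are not reported here. Alternatives were other scalings, filters, dispersions, thresholds and lengths, and leaving out each replicate.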

Additional observations from a re-analysis of the deposited data

How the results depend on the processing

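The median over the 10 genes was 30.1 CPM with TMM scaling and 30.1 with DESeq2 1.42.0 size factors. It was 26.6 to 32.7 CPM with 1 replicate left out. The 3 most abundant genes, Rn45s, Malat1 and Meg3, are part of the totals behind every CPM given above. Without these 3 in the totals the median was 35.1 CPM, and Tle4 moved to 43.3 and Sox5 to 31.3 CPM. Detected members were 9 of 10 at 0.5 CPM, 7 at 5 CPM and 9 without any 1 replicate. No member was called as varying under any of the 8 alternatives of that test, while the count over all genes, 32, became 780 with a common dispersion, 8 without replicate 1, 5 without replicate 2 and 22 without replicate 3. At an unadjusted p under 0.05, Fezf2 and Syt6 were the members found under 6 of the 8, but without replicate 1 only Etv1 was and without replicate 2 none. Of the neighbouring pairs, 3 were beyond their SD, but 5 without length correction and 3 to 6 with 1 replicate left out. Of the partner pairs, 9 were, but 5 without length correction, 7 with the longest transcript length and 7 to 10 with 1 replicate left out. With that length Foxp1 and Foxp4, Bcl11b and Bcl11a, and Tle4 and Tle1 were no longer beyond their SD, while Crym and Thrb were (0.35 ± 0.28). Without length correction Crym minus Bcl11b turned to −1.04 on the log2 scale, Tle4 minus Foxp1 to −0.68, Foxp1 minus Foxp4 to 0.93 and Crym minus Thrb to −0.86. With the longest transcript length, chosen after seeing the data, Tle4 minus Foxp1 turned to −0.0238, Foxp1 minus Foxp4 to 0.0870 and Sox5 minus Sox6 to 0.0549. With 1 replicate left out, Foxp1 minus Fezf2 ranged from −0.33 (without replicate 1) to 1.79, Fezf2 minus Etv1 from −1.05 to 0.86 (without replicate 1), Etv1 minus Syt6 from −0.43 (without replicate 2) to 1.63, Syt6 minus Sox5 from −1.07 to 0.49 (without replicate 2) and Sox5 minus Sox6 from −0.27 to 0.0298 (without replicate 1). The cause was not tested. No paired analysis was possible because the series has 1 group. With 3 libraries the exact sign-flip test cannot give a p below 0.25, and the 1 to 6 counts of Pcp4 leave its level imprecise.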

Other observations

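Genes that act with Crym and Pcp4 were described as well. Crym holds thyroid hormone in the cytosol, and of 6 genes of thyroid hormone handling 5 were detected. The nuclear receptors Thra and Thrb measured 54.0 ± 8.17 and 17.3 ± 5.53 CPM per kb (SD, n = 3). Dio2, the enzyme that activates the hormone in astrocytes, measured 86.5, 18.2 and 28.4 CPM in replicates 1, 2 and 3. The cause of its spread was not tested. Of the 6 genes 2 were highest in replicate 1, 3 in replicate 2 and 1 in replicate 3. Dio3, which inactivates the hormone, stayed under 1 CPM in every library.

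Pcp4 binds calmodulin, and the genes of calmodulin and of its neuronal targets were abundant in these libraries. Pcp4 was near the floor in every library, and a relation between its level and theirs was not tested. All 7 on the list were detected. Camk2a and Calm2 measured 2756 ± 806 and 1680 ± 746 CPM. All 7 were highest in replicate 2. The 3 most abundant regulators of cortical identity were Mef2c at 615 ± 370 CPM, Zbtb18 at 186 ± 85.3 CPM and Ski, a transcriptional co-repressor, at 176 ± 47.1 CPM, and replicate 2 was the highest library for 9 of the 14 genes on that list.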
